A study of Mus musculus with 15 samples.

Results

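A list of 38 genes of epithelial cell junctions and keratin filaments was followed across cultured mouse small cell lung cancer lines. The list was given as gene names, and a gene was a member where its name stood in the first column of both deposited count tables, and all 38 names were found once in each, among 53510 names that the tables share. By role the list holds 3 adherens junction and surface adhesion genes, 10 claudins, 7 other tight junction and polarity genes, 6 keratins, 6 desmosome genes and 6 regulators of the epithelial state. The rule uses no measured value, but the list was drawn up with earlier results of these data known.

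RNA sequencing was done on 15 libraries, each from a line that was taken from lung or liver tissue and cultured in advanced RPMI with glutamax and 1% FCS. All lines are labelled as carrying MYC and lacking Rb1 and Trp53. The label for the lines with no further change is Rb1-/-:Trp53-/-:MYC (RPM), and for the lines that also lack Stat3 it is Rb1-/-:Trp53-/-:STAT3-/-:MYC (RPMS). The first table holds 4 RPM lung lines (CMV_426, CMV_427, CMV_428, CMV_429) and 3 RPMS lung lines (CMV_228, CMV_231, CMV_252), and the second holds 4 RPMS lung lines (CMV_228, CMV_231, CMV_232, CMV_252) and 4 RPMS liver lines (CMV_273, CMV_341, CMV_343, CMV_344). The labels give no age, no Cre driver and no passage number, and do not say whether a line is 1 clone or whether lines share an animal. Since each library is 1 line, a p-value measures the spread between lines.

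Epithelial cells are held together by 3 kinds of junction. Adherens junctions are built on E-cadherin and its catenins, tight junctions on claudins, occludin and the zonula occludens scaffolds, and desmosomes on desmogleins, desmocollins and plakins that anchor keratin filaments. Small cell lung cancer is a neuroendocrine carcinoma, and carcinoma cells of this kind often keep simple-epithelium keratins and E-cadherin. Repressors of the Zeb and Snai families bind E-box sequences in promoters of epithelial genes, while the splicing factors Esrp1 and Esrp2 and the transcription factors Grhl2, Ovol1 and Ovol2 act to keep the epithelial state.

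The letters of 4 member promoters are shown because Zeb and Snai factors read a 6-base E-box. CACCTG and its reverse complement CAGGTG were searched in the 250 bases before each RefSeq start site of build GRCm38.p6, which covers both strands, and the 2 motifs do not overlap each other. Capitals mark the matches. Epcam (chr17:87635729-87635978, plus strand) held 2 matches and F11r (chr1:171437311-171437560, plus strand) held 1. Cgn (chr3:94786483-94786732, minus strand) and its paralogue Cgnl1 (chr9:71771603-71771852, minus strand) are shown because they passed the test in opposite directions, and neither window held a match.
Epcam: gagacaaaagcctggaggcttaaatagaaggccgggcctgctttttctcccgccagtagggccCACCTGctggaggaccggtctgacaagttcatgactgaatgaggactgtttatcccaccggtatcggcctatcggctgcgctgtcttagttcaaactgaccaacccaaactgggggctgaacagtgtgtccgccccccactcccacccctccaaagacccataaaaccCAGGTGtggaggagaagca
F11r: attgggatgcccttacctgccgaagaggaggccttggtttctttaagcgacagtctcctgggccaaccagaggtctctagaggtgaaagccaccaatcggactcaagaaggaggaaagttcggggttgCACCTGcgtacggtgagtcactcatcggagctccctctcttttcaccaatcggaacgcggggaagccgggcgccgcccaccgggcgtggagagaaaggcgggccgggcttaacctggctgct
Cgn: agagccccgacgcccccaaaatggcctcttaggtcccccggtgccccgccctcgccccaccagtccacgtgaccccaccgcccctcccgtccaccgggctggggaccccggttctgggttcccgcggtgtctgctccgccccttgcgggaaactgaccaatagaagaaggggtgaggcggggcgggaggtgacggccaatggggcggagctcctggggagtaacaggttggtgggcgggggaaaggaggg
Cgnl1: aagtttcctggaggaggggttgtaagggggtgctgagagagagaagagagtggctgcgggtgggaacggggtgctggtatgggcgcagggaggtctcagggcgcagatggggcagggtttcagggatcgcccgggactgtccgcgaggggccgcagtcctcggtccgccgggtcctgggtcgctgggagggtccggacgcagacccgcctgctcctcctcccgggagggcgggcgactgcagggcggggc

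Promoter windows were given for 25 of the 38 genes, and at least 1 match was found for 13 of them (52%), against 5252 of 27025 genes of the same RefSeq table (19.4%). Epcam carried its matches 187 and 19 bases before the start site and F11r carried its match 122 bases before it. Crb3, which encodes an apical polarity protein, held 3 matches, which are the same sites in each of its overlapping windows. The windows of Krt7, Krt8, Krt18, Elf3 and Cldn4 held 1 match each. A match describes letters and is not shown to be a bound site.

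Before the comparisons, the labels were set against marker genes. Stat3, the gene deleted in RPMS lines, ran from 159 to 208 CPM (counts scaled to TMM-adjusted library size) in the RPM libraries, from 7.81 to 18.97 CPM in the RPMS libraries of the first table and from 11.2 to 28.4 CPM in the second table. The edgeR quasi-likelihood test with Benjamini-Hochberg adjustment gave Stat3 a log2 fold change (log2FC) of -3.69 (SE 0.35, adjusted p = 0.00176) between RPMS and RPM lung lines. Of the other genes of the genotypes, Myc also fell, from between 9.64 and 30.5 CPM in RPM lines to between 0.674 and 3.56 CPM in RPMS lines (log2FC -3.52, SE 0.76, adjusted p = 0.0146). Myc stood between 17.2 and 75.4 CPM in the RPMS libraries of the second table. Rb1 and Trp53 did not pass (log2FC 0.94 and -0.82, adjusted p = 0.241 and 0.571), and counts over a whole gene do not show whether its deleted part is missing. The label of every library gives lung epithelium as the cell type. Summed leukocyte markers ran from 3231 to 15579 CPM in the RPM libraries and from 2.88 to 125 CPM in the RPMS libraries of the first table. Of the 15 leukocyte markers 13 were tested and 12 fell, and Ptprc, Adgre1, Cd14, Itgam and the 3 C1q genes had 0 counts in all RPMS libraries of the first table. Summed neuroendocrine markers ran the other way, from 19.5 to 75.8 CPM in RPM and from 1198 to 4128 CPM in RPMS, and 9 of the 12 rose. Alveolar surfactant genes stood high in 2 RPM libraries, with Sftpc at 146 CPM in CMV_428 and 721 CPM in CMV_429 and at 0 counts in CMV_426 and CMV_427. In the second table the library labelled CMV_252 held 189.8 CPM of summed neuroendocrine markers, against 3276 to 4627 CPM in the other 3 RPMS lung libraries. In a bulk library, fewer cells of a type and less RNA per cell cannot be told apart, and for each difference between RPMS and RPM lines below, the loss of Stat3 and the makeup of the cultures cannot be told apart.

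The list was expressed unevenly from line to line. At least 1 CPM was reached by 10 to 26 of the 38 genes in a library, with the most in CMV_231 of the first table and the fewest in the liver line CMV_273, and at least 10 CPM was reached by 4 to 15. Scaled to exon length, the genes with the highest mean level in RPM lung were Krt8 (71.7 CPM per kb, set by 1 library), Cldn3 and Cgnl1 (both 21.8) and F11r (15.9). In the RPMS lung lines of the first table the order was Krt7 (20.8 CPM per kb), F11r (16.2) and Tjp1 (14.0), and in the liver lines it was Krt7 (25.1), Jup (18.7) and Tjp1 (15.9). Neighbours in these orders lay within the spread between lines. At the bottom, Krt5 and Krt14, the keratin pair of basal epithelial cells, never passed 0.119 CPM, and Cdh3, which encodes P-cadherin, never passed 0.970 CPM.

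**Figure D1:**
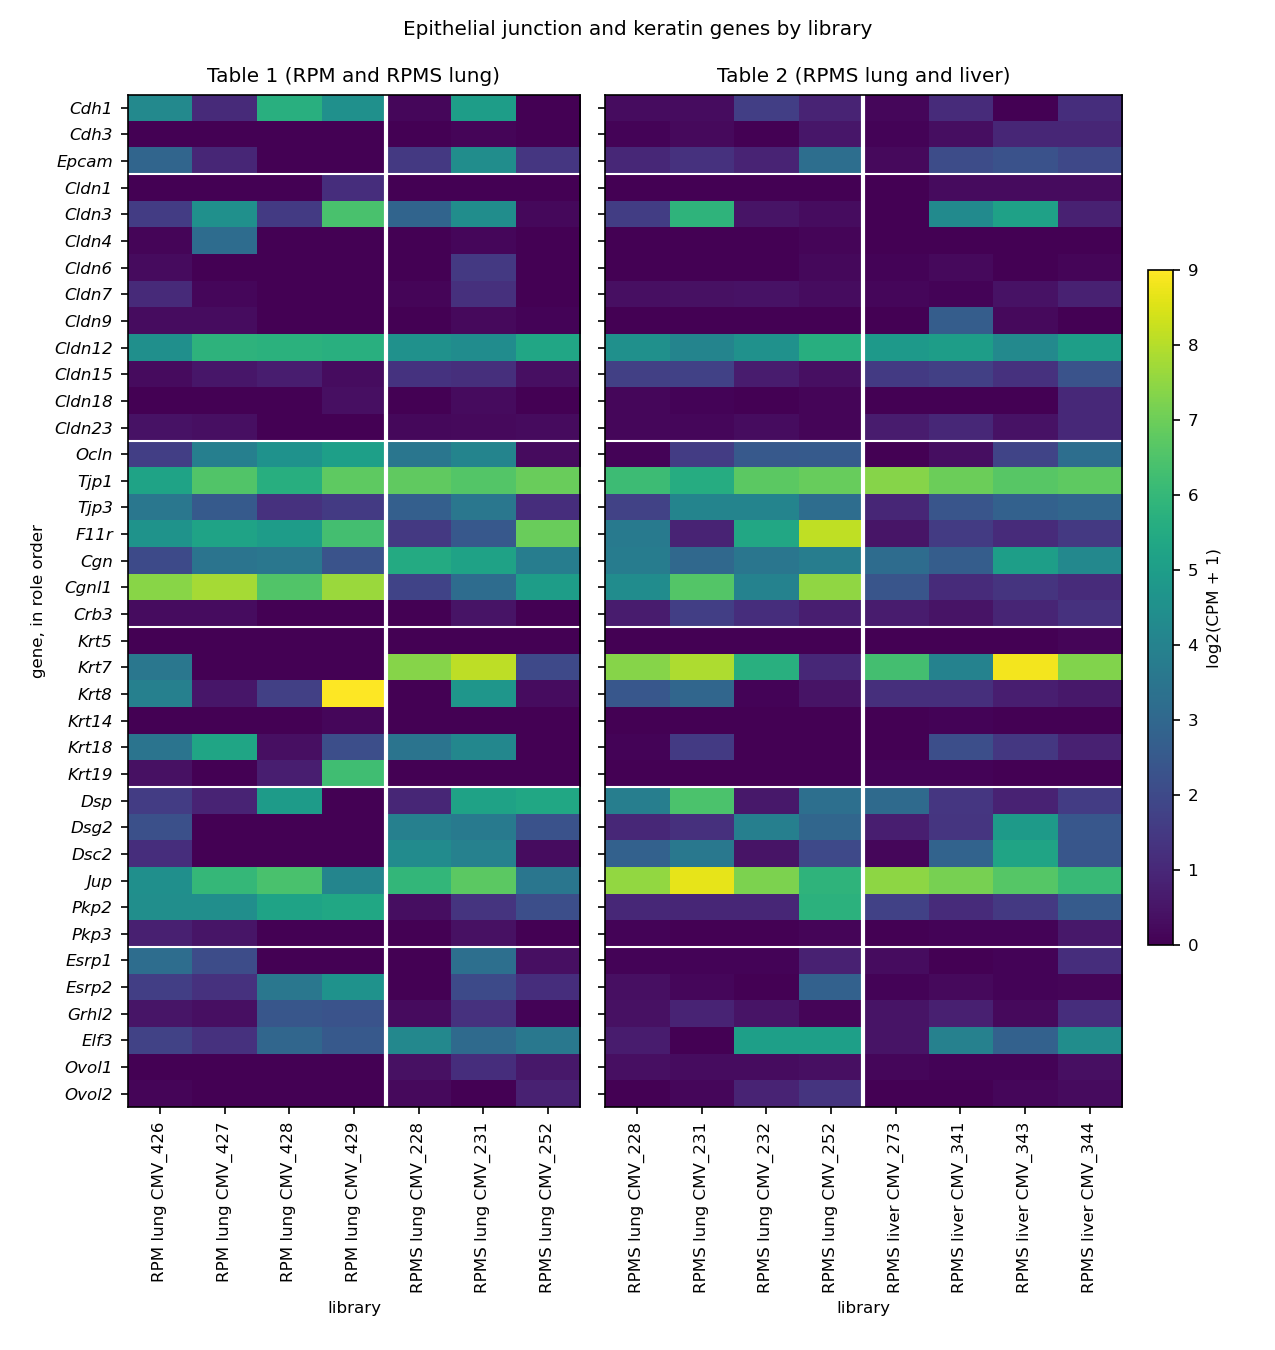
Heat map of the 38 genes (rows, in role order, roles split by white lines) in the 15 libraries (columns), coloured by log2(CPM + 1), with the first table on the left and the second table on the right. Tjp1, Cldn12 and Jup are above 10 CPM in every library, while Cdh1, Krt8, Krt19 and F11r switch between libraries of the same group.

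The first comparison, RPMS against RPM lung lines, asks how lines without Stat3 differ from lines that keep it. Among epithelial junction and keratin genes, cingulin (Cgn) rose and paracingulin (Cgnl1) and plakophilin 2 (Pkp2) fell in RPMS lung lines, and no claudin, keratin, cadherin or epithelial regulator of the list passed the test. Of the 38 genes 23 had enough counts to be tested and 15 did not. The 3 that passed an adjusted p of 0.05 are 13.0% of those tested, against 30.6% of all 17654 genes tested (14.9% higher, 15.7% lower). The groups did not overlap in 5 of the 23 tested genes, 3 higher and 2 lower, where 43.0% of all tested genes did not overlap. The median log2 fold change of the 23 genes was 0.05, against -0.01 over all tested genes.

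Cdh1 (chromosome 8, 106603351 to 106670246 in GRCm38), which encodes E-cadherin, stood at 17.99, 1.12, 50.3 and 21.7 CPM in RPM lines CMV_426, CMV_427, CMV_428 and CMV_429. In RPMS lines CMV_228, CMV_231 and CMV_252 it stood at 0.123, 31.3 and 0 CPM. E-cadherin RNA was above 10 CPM in 3 RPM lines and 1 RPMS line, so that the groups overlapped, and the log2FC of -1.12 (SE 2.06) did not pass (edgeR adjusted p = 0.715). Leaving out RPMS line CMV_231 gave Cdh1 a log2FC of -8.44 and an adjusted p of 0.0481, the only member call in that fit. Epcam (chromosome 17, 87635979 to 87651129), an epithelial surface adhesion molecule, was at 6.61, 0.971, 0 and 0 CPM in the RPM lines and at 1.81, 20.2 and 1.66 CPM in the RPMS lines. Its highest library was again CMV_231, and the groups overlapped (log2FC 2.05, SE 1.93, edgeR adjusted p = 0.461). Cdh3 had 0 counts in RPM and 3 in RPMS libraries and was not tested.

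Among the claudins, which form the seal of the tight junction, 3 of 10 were tested and none passed. Cldn3 (chromosome 5, 134986214 to 134987472) stood at 1.99, 21.8, 1.92 and 84.0 CPM in RPM and at 6.38, 20.5 and 0.151 CPM in RPMS lines, with a log2FC of -1.61 (SE 1.73, edgeR adjusted p = 0.522). Its levels spread across both groups. Cldn12 was found in every line, between 21.4 and 55.5 CPM in the RPM group and between 19.6 and 39.5 CPM in the RPMS group, and Cldn15 stayed at or below 1.502 CPM. Neither passed. The other 7 claudins were untested: Cldn4 reached 8.14 CPM in RPM line CMV_427 alone, Cldn6 1.84 and Cldn7 1.36 CPM in RPMS line CMV_231, Cldn1 1.27 CPM in RPM line CMV_429, and Cldn9, Cldn18 and Cldn23 stayed at or below 0.352 CPM. Wbscr25 overlaps Cldn3 on the opposite strand, and the strand setting of the counting is not given in the sources used here, so that reads of the pair may not be told apart. The same limit holds for Tjp3, Crb3, Krt5, Krt7, Krt8, Dsp, Dsg2, Esrp1, Esrp2, Grhl2, Elf3, Ovol1 and Ovol2, whose exons also overlap opposite-strand genes.

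The 3 genes that passed encode proteins of the cytoplasmic plaque of junctions. Cgn (chromosome 3, 94760069 to 94786492) encodes cingulin, which ties tight junctions to the cytoskeleton. It was at 3.09, 10.05, 10.8 and 3.92 CPM in RPM lines and at 44.4, 35.6 and 13.2 CPM in RPMS lines. Every RPMS line stood above every RPM line, with CMV_252 nearest to them. The mean rose from 6.97 ± 4.04 (SD, n = 4) to 31.1 ± 16.1 CPM (n = 3), a log2FC of 2.15 (SE 0.61, edgeR adjusted p = 0.0357).

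Cgnl1 (chromosome 9, 71626509 to 71771602) encodes paracingulin, a paralogue of cingulin found at adherens as well as tight junctions. In RPM lines it stood at 168, 221, 92.9 and 201 CPM, and in RPMS lines at 2.51, 8.07 and 31.5 CPM. The groups were apart in the direction opposite to that of Cgn. The mean fell from 171 ± 56.2 to 14.0 ± 15.4 CPM, a log2FC of -3.60 (SE 0.89, edgeR adjusted p = 0.0228).

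Pkp2 (chromosome 16, 16213318 to 16272712) encodes plakophilin 2, an armadillo protein that links desmosomal cadherins to desmoplakin. It was measured at 20.8, 20.7, 36.7 and 39.7 CPM in RPM lines and at 0.245, 1.58 and 3.44 CPM in RPMS lines. The lowest RPM line was several times above the highest RPMS line. Its mean fell from 29.4 ± 10.2 to 1.76 ± 1.604 CPM, a log2FC of -4.06 (SE 0.88, edgeR adjusted p = 0.0148).

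The 3 genes split the 2 groups as the leukocyte and neuroendocrine marker sums given above did, and the part of those markers was not tested. Within the RPM lines, Pkp2 was lowest in CMV_426 and CMV_427, where the leukocyte sums were highest (15579 and 11014 CPM). Cgnl1 was lowest in CMV_428, where that sum was lowest (3231 CPM). The calls of Cgn, Cgnl1 and Pkp2 were all lost without RPMS line CMV_231 (adjusted p = 0.103, 0.0838 and 0.0614) and without both surfactant-rich RPM lines CMV_428 and CMV_429 (0.117, 0.0686 and 0.0740), a setting chosen after seeing the data, while each fold change kept its sign. All 3 were kept without CMV_252. Cgn was also lost without CMV_426, CMV_427, CMV_429 or CMV_228 (0.0627, 0.0512, 0.0779 and 0.124) and Cgnl1 without CMV_427 (0.0506).

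**Figure D2:**
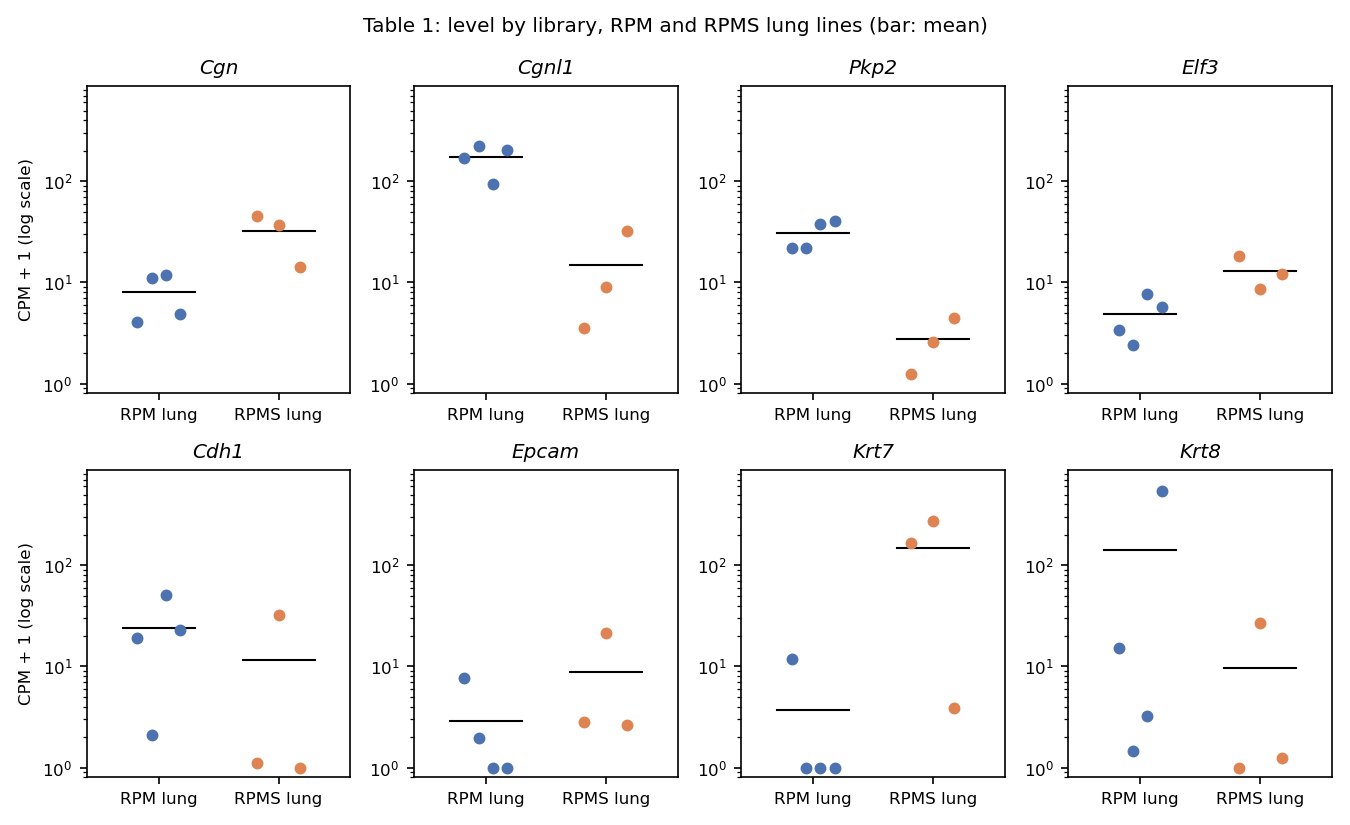
Level of 8 genes in the first table's libraries on a log axis of CPM + 1, with a dot per library and a bar at the group mean. Cgn, Cgnl1, Pkp2 and Elf3 are split by group, whereas Cdh1, Epcam, Krt7 and Krt8 each have libraries far apart within a group.

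The remaining tight junction and polarity genes did not pass. F11r (chromosome 1, 171437535 to 171464603), which encodes the junctional adhesion molecule JAM-A, was at 23.8, 36.0, 30.7 and 78.5 CPM in RPM lines and at 1.84, 4.53 and 123 CPM in RPMS lines. RPMS lines CMV_228 and CMV_231 lay below all RPM lines and CMV_252 lay above them, and the log2FC was 0.03 (SE 1.29, edgeR adjusted p = 0.989). Without CMV_252 it was -3.74 with an adjusted p of 0.0142. Tjp1 (chromosome 7, 65296165 to 65527781), the scaffold ZO-1, was at 36.1, 93.2, 48.5 and 109 CPM in RPM lines and at 111, 94.7 and 122 CPM in RPMS lines, a log2FC of 0.61 (SE 0.40, edgeR adjusted p = 0.288). Its RPMS lines were close together and overlapped the upper RPM lines. Ocln ran from 2.15 to 33.2 CPM in RPM and from 0.211 to 15.8 CPM in RPMS lines, Tjp3 from 1.44 to 10.8 and from 1.24 to 10.9 CPM, and Crb3 stayed at or below 0.380 CPM and was not tested.

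No keratin passed with all libraries in the fit. Krt8 (chromosome 15, 101996698 to 102004482) and Krt18 (chromosome 15, 102028180 to 102032027) encode the type II and type I partners of the simple-epithelium filament. Krt8 was at 14.1, 0.448, 2.24 and 545 CPM in RPM lines and at 0, 25.6 and 0.241 CPM in RPMS lines. Krt18 was at 10.1, 37.8, 0.280 and 3.44 CPM in RPM lines and at 10.1, 16.9 and 0 CPM in RPMS lines. The partners did not track each other: CMV_429 had the highest Krt8 and little Krt18, CMV_427 had the highest Krt18 and almost no Krt8, and CMV_228 had Krt18 with 0 counts of Krt8. Both have related pseudogenes, so the split of their reads is uncertain.

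Neither partner passed, with log2FC -4.02 (SE 2.95) for Krt8 and -0.52 (SE 1.84) for Krt18 (edgeR adjusted p = 0.344 and 0.854). Krt7 (chromosome 15, 101411043 to 101430313), a simple keratin of ducts and airways, was at 10.8, 0, 0 and 0 CPM in RPM lines and at 163, 274 and 2.93 CPM in RPMS lines. RPMS lines CMV_228 and CMV_231 stood far above every other library, CMV_252 stood below RPM line CMV_426, and the log2FC of 5.76 (SE 2.47) did not pass (edgeR adjusted p = 0.120). Without CMV_426, the one RPM line with Krt7 counts, Krt7 passed (edgeR adjusted p = 0.0357), in a range of 0.0357 to 0.273 over the alternatives. Krt19 (chromosome 11, 100140810 to 100148665) reached 74.6 CPM in CMV_429, the line with the high Krt8, stood at 0.313, 0 and 0.680 CPM in the other RPM lines and had 0 counts in all 3 RPMS lines, whose floor of 3 counts is at most 0.0950 CPM. The high Krt8 and Krt19 of CMV_429 stood beside its surfactant genes. The other surfactant-rich line, CMV_428, held 2.24 CPM of Krt8 and 0.680 CPM of Krt19. A part of alveolar cells in these values was not tested.

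In the desmosome, Dsg2 and Dsc2 encode a desmoglein and a desmocollin, both on chromosome 18. Dsg2 was at 3.64 CPM in CMV_426 with 0 counts in the other 3 RPM lines, and at 14.2, 12.1 and 3.83 CPM in RPMS lines. Dsc2 was at 1.25 CPM in CMV_426, again with 0 counts in the others, and at 19.2, 14.5 and 0.241 CPM in RPMS lines. Dsg2 was higher without overlap and Dsc2 overlapped, and neither passed (log2FC values 3.46, SE 2.01, and 5.16, SE 2.12; edgeR adjusted p = 0.235 and 0.108). Dsg2 was called by limma-voom and when CMV_426 was left out. In the second table, however, CMV_228 and CMV_231 held 1.01 and 1.35 CPM of Dsg2, within the range of the RPM lines, and CMV_252 held 6.81 CPM. Dsp (chromosome 13, 38151294 to 38198577), the plakin desmoplakin, was at 2.03, 0.859, 29.7 and 0 CPM in RPM lines and at 0.950, 35.6 and 39.8 CPM in RPMS lines, with a log2FC of 1.64 (SE 1.89, edgeR adjusted p = 0.549). Jup (chromosome 11, 100368958 to 100397763), plakoglobin of both desmosomes and adherens junctions, was at 21.5, 63.4, 84.1 and 16.2 CPM in RPM lines and at 61.7, 105 and 10.6 CPM in RPMS lines, and its groups overlapped (log2FC 0.35, SE 0.84, edgeR adjusted p = 0.781). Pkp3 stayed at or below 0.743 CPM and was not tested.

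Of the regulators, the ETS factor gene Elf3 (chromosome 1, 135253575 to 135258568) came nearest to the threshold. It was at 2.42, 1.42, 6.76 and 4.75 CPM in RPM lines and at 17.4, 7.57 and 11.1 CPM in RPMS lines. All RPMS lines stood above all RPM lines, with a log2FC of 1.65 (SE 0.59, edgeR adjusted p = 0.0744). DESeq2 and limma-voom called Elf3 (adjusted p = 0.0208 and 0.0435), in a range of 0.0208 to 0.239 over all alternatives. In the second table, however, CMV_228 and CMV_231 held 0.619 and 0 CPM of Elf3, below every RPM line, and CMV_252 held 32.5 CPM. Esrp1 was found at 8.21 and 3.29 CPM in CMV_426 and CMV_427 and at 8.64 CPM in CMV_231, with 0.302 CPM or less elsewhere in the first table. Esrp2 and Grhl2 were highest in the surfactant-rich lines CMV_428 and CMV_429, at 10.9 and 22.9 CPM for Esrp2 and at 4.36 and 3.88 CPM for Grhl2, against at most 3.07 and 1.42 CPM in the other libraries of the first table. Neither passed (edgeR adjusted p = 0.251 and 0.312). Ovol1, a zinc finger repressor, had 0 counts in RPM lines and 0.337, 1.23 and 0.483 CPM in RPMS lines, which puts its mean at least 5.85-fold higher against a floor of 3 counts per library. It had too few counts for the test, as did Ovol2, which stayed at or below 0.784 CPM.

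**Figure D3:**
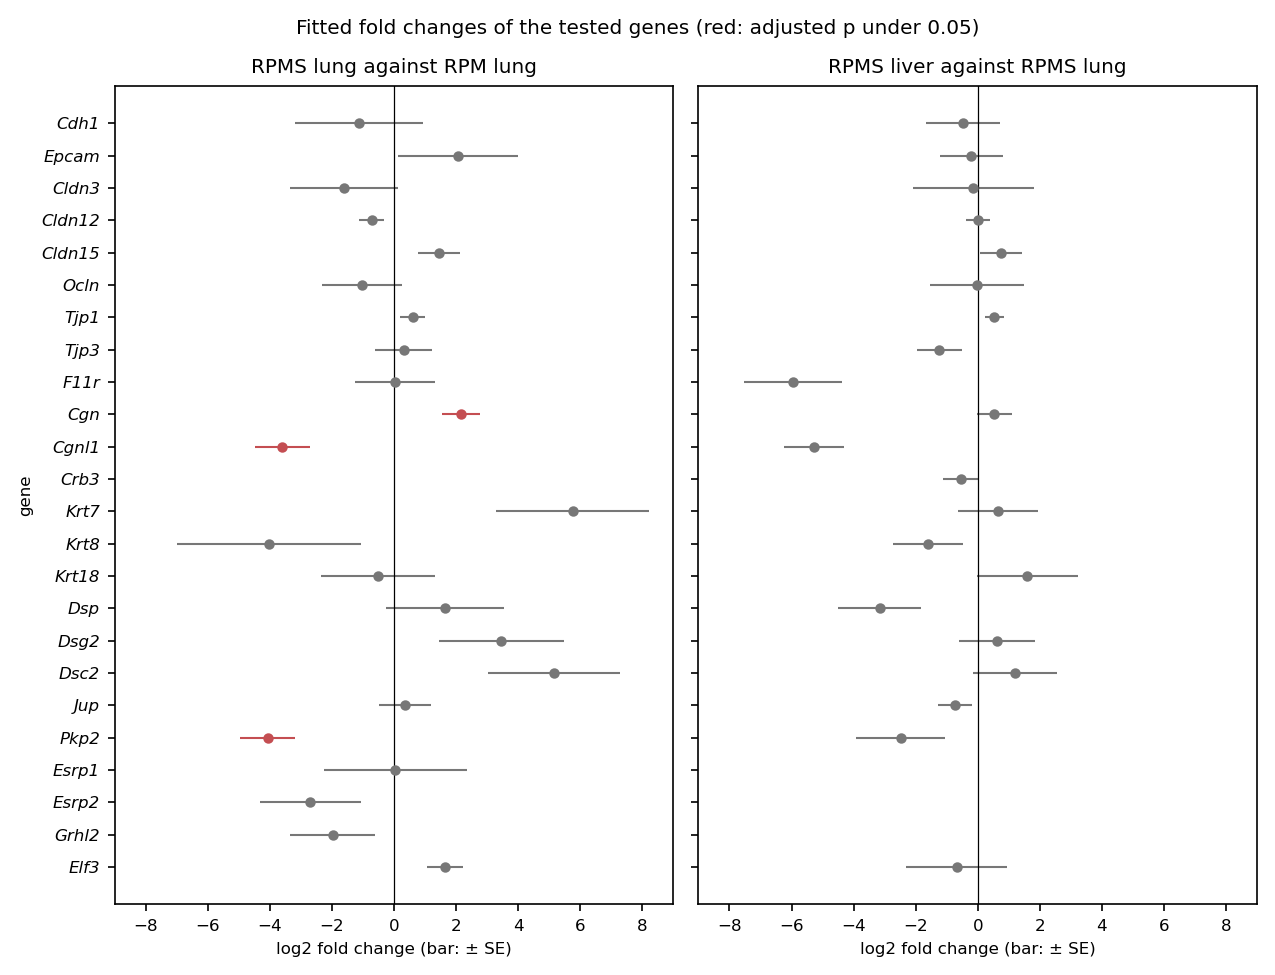
Fitted log2 fold changes of the tested genes (dots, bars ± SE) for RPMS against RPM lung on the left and RPMS liver against RPMS lung on the right. Cgn, Cgnl1 and Pkp2 are in red for an adjusted p under 0.05 on the left, no gene is red on the right, and the bars of several keratin and desmosome genes span more than 4 log2 units.

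Partners of these proteins outside the list were read the same way, and each count below stands against 30.6% of all tested genes called. Of 18 other adherens junction genes 16 were tested, and 6 rose and 3 fell (56.2% called). Ctnna1, which encodes the alpha-catenin of epithelia, fell from 354 ± 95.2 to 122 ± 26.7 CPM (log2FC -1.53, SE 0.28, edgeR adjusted p = 0.00829), and its neural paralogue Ctnna2 rose from 0.166 to 80.9 CPM (8.89, SE 1.59, adjusted p = 0.00810). Ctnnd2, the neural delta-catenin, rose from 0.651 to 70.8 CPM (6.76, SE 1.25, edgeR adjusted p = 0.00902). A further 3 genes of cadherin complexes were picked after their values were seen. Ctnnb1, beta-catenin, fell from 1033 to 487 CPM (edgeR adjusted p = 0.0193), Ctnnd1, the p120-catenin that holds cadherins at the surface, fell from 308 to 105 CPM (0.0106), and N-cadherin (Cdh2) ran from 0.160 to 42.5 CPM in RPM and from 140 to 170 CPM in RPMS lines without passing (0.0901).

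**Figure D4:**
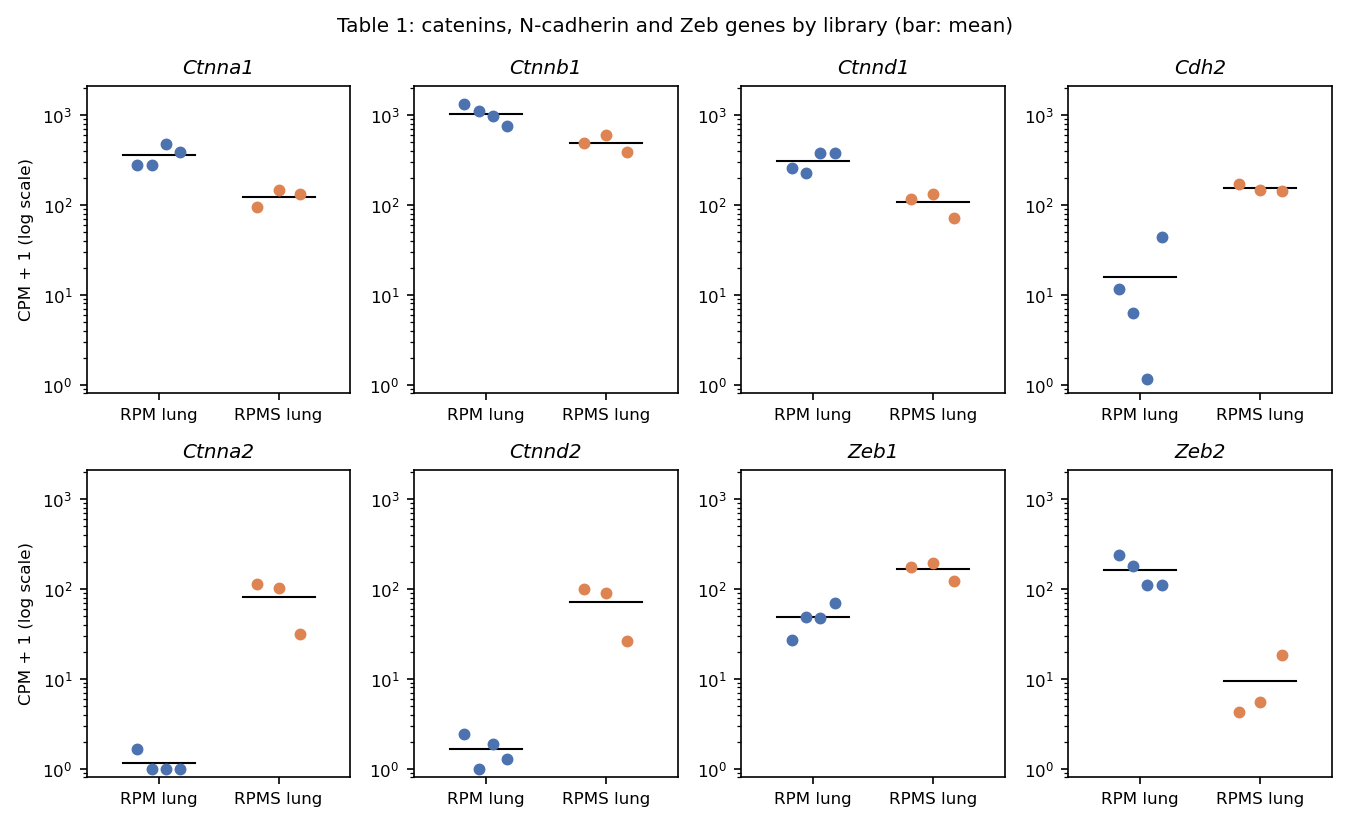
Level of the catenin genes Ctnna1, Ctnna2, Ctnnb1, Ctnnd1 and Ctnnd2 and of Cdh2, Zeb1 and Zeb2 in the first table on a log axis of CPM + 1, with a dot per library and a bar at the mean. The 2 groups do not overlap in any of the 8 genes, with Ctnna1, Ctnnb1, Ctnnd1 and Zeb2 lower and the other 4 higher in RPMS lines. Over all tested genes, 43.0% did not overlap. Ctnnb1, Ctnnd1, Cdh2 and Zeb1 were picked after their values were seen and the others for their small p, so the lack of overlap follows from that choice.

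Among 31 other claudin and tight junction genes 20 were tested, and 4 rose and 1 fell (25% called). Pard6g and Prkcz, which encode parts of the Par polarity complex, rose from 7.90 to 45.4 CPM and from 2.35 to 51.7 CPM (edgeR adjusted p = 0.00622 and 0.0165), and Jam3, a junctional adhesion molecule like F11r, rose from 6.56 to 34.2 CPM (0.0130). Of 12 other desmosome genes 5 were tested and 60% called: the armadillo protein gene Pkp4 and the plakin gene Evpl rose and Perp, a membrane protein of desmosomes, fell from 33.2 to 1.81 CPM (edgeR adjusted p = 0.0427). Of 18 other keratins 2 had enough counts, and neither passed. Of 22 other epithelial regulators and surface proteases 16 were tested and 18.8% called: none rose, and Itga6, Klf5 and Trp63 fell, Trp63 from 9.63 to 0.0317 CPM (edgeR adjusted p = 0.0305).

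The E-cadherin repressors split by direction, with 3 of the 9 tested higher and 3 lower (66.7% called). Zeb2 fell from 239, 180, 110 and 108 CPM in RPM lines to 3.22, 4.46 and 17.4 CPM in RPMS lines (log2FC -4.25, SE 0.74, edgeR adjusted p = 0.00755). Zeb1, named after its values were seen, ran from 26.2 to 69.0 CPM in RPM and from 122 to 195 CPM in RPMS lines (1.78, SE 0.34, edgeR adjusted p = 0.00986). Tcf4 rose from 121 to 323 CPM and Twist2 had 0 counts in all RPMS lines. Zeb2 is also known from macrophages, and its fall stood beside that of the leukocyte markers, whose part in it was not tested.

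The second comparison, RPMS liver against RPMS lung lines, asks how lines from the 2 organs differ. No member passed, and neither did any of the 14441 genes tested (0% called, lowest edgeR adjusted p = 0.0857). At an unadjusted p under 0.05 there were 650 genes (4.50%), and 3 of the 21 tested members, Cgnl1, F11r and Dsp, all lower in liver. DESeq2 called 52 genes, 2 of them members, and limma-voom called none. The median log2 fold change of the 21 members was -0.20, against -0.02 over all tested genes. Of the 21 members 1 did not overlap between the groups, being lower in liver, against 2.56% of all tested genes (1.36% higher, 1.2% lower). No gene of the other junction, keratin, regulator or repressor lists passed either. The hepatocyte genes Alb and Apob stayed at or below 0.388 CPM in the liver lines.

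The 2 members with the largest fitted fold changes in this comparison were the tight junction genes Cgnl1 and F11r. Cgnl1 was at 19.8, 95.3, 14.8 and 183 CPM in lung lines CMV_228, CMV_231, CMV_232 and CMV_252 and at 4.16, 1.17, 1.54 and 1.16 CPM in liver lines CMV_273, CMV_341, CMV_343 and CMV_344. Every liver line was below every lung line of this comparison, but CMV_228, CMV_231 and CMV_252 held 2.51, 8.07 and 31.5 CPM in the first table. The CMV_228 value there lay within the liver range. The log2FC was -5.27 (SE 0.97, unadjusted p = 0.00049 and adjusted p = 0.946 by edgeR; DESeq2 adjusted p = 5.72e-07, in a range of 5.72e-07 to 0.999 over the alternatives).

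F11r was at 12.2, 0.865, 41.2 and 280 CPM in lung lines and at 0.432, 1.97, 1.17 and 1.84 CPM in liver lines. All lung lines of this comparison but CMV_231 stood above all liver lines. In the first table CMV_228, CMV_231 and CMV_252 held 1.84, 4.53 and 123 CPM, and the CMV_228 value lay within the liver range. The log2FC was -5.95 (SE 1.58, edgeR unadjusted p = 0.00474, adjusted p = 0.946; DESeq2 adjusted p = 0.000496). Without the library labelled CMV_252, which held the most Cgnl1 and F11r and the fewest neuroendocrine transcripts, the log2FC values were -4.43 and -3.75.

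Cgn, which rose in RPMS against RPM lung lines, was at 12.7, 7.19, 10.6 and 13.1 CPM in lung lines of the second table and at 8.16, 5.28, 31.7 and 17.5 CPM in liver lines. The liver lines lay on both sides of the lung lines (log2FC 0.53, SE 0.56, edgeR adjusted p = 0.950).

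Dsp was at 13.5, 87.5, 0.513 and 8.80 CPM in lung lines and at 7.73, 1.71, 0.795 and 2.04 CPM in liver lines, and its groups overlapped (log2FC -3.16, SE 1.34, edgeR adjusted p = 0.946). Pkp2 was at 1.01, 0.973, 0.969 and 54.5 CPM in lung lines and at 2.38, 1.17, 1.80 and 4.94 CPM in liver lines. Its fitted log2FC of -2.48 (SE 1.43, edgeR adjusted p = 0.946) rested on CMV_252 and was 1.36 without it.

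Jup was at 187, 406, 147 and 56.7 CPM in lung lines and at 177, 140, 97.8 and 66.7 CPM in liver lines (log2FC -0.73, SE 0.55, edgeR adjusted p = 0.946). Krt7 was at 163, 237, 50.7 and 0.995 CPM in lung lines and at 79.1, 14.8, 458 and 155 CPM in liver lines (0.65, SE 1.29, edgeR adjusted p = 0.975). Both overlapped between the sites, and of the 8 lines CMV_252 alone had less than 10 CPM of Krt7. Tjp1 was at 71.4, 47.1, 105 and 120 CPM in lung lines and at 165, 124, 99.9 and 107 CPM in liver lines (0.53, SE 0.31, edgeR adjusted p = 0.946).

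E-cadherin RNA was scarce in all of the second table. Cdh1 was at 0.225, 0.216, 2.17 and 0.842 CPM in lung lines and at 0.108, 1.17, 0 and 1.26 CPM in liver lines. Epcam was at 1.01, 1.41, 0.855 and 8.498 CPM in lung lines and at 0.162, 3.25, 3.87 and 2.91 CPM in liver lines. The sites overlapped for both genes, with log2FC -0.47 (SE 1.20) for Cdh1 and -0.20 (SE 1.01) for Epcam (edgeR adjusted p = 0.981 and 0.991).

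The simple keratins other than Krt7 were low at both sites. Krt8 was at 4.39, 6.87, 0.0570 and 0.383 CPM in lung lines and at 1.30, 1.33, 0.689 and 0.485 CPM in liver lines. Krt18 was at 0.0563, 1.89, 0 and 0 CPM in lung lines and at 0, 3.52, 1.75 and 0.776 CPM in liver lines. The sites overlapped, and neither passed (edgeR adjusted p = 0.946 and 0.950). Krt19 reached at most 0.0540 CPM.

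Cldn3 was at 2.08, 57.0, 0.399 and 0.230 CPM in lung lines and at 0, 19.0, 34.2 and 0.776 CPM in liver lines. Elf3 was at 0.619, 0, 32.6 and 32.5 CPM in lung lines and at 0.378, 14.5, 5.94 and 20.2 CPM in liver lines. Each had high and low lines at both sites, with log2FC -0.14 (SE 1.95) for Cldn3 and -0.68 (SE 1.64) for Elf3 (edgeR adjusted p = 0.997 and 0.979). Among the other tested members, the desmosomal cadherins Dsg2 and Dsc2 reached 28.6 and 37.0 CPM in liver line CMV_343 and 13.9 and 11.2 CPM at most in lung lines. The tight junction genes Ocln and Tjp3 reached at most 8.63 and 15.9 CPM, Crb3 2.22 CPM, and Cldn15 3.88 CPM, while Cldn12 stood between 15.8 and 48.4 CPM in all 8 lines. None of these genes passed, and all overlapped between the sites.

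Of the 17 members with too few counts for the test, Cldn9 reached 5.33 CPM in liver line CMV_341 with 0 counts in all lung lines, and Cldn23 was at 0.371 to 1.07 CPM in liver against 0.0766 to 0.228 CPM in lung lines. Esrp2 and Ovol2 reached 5.89 and 1.53 CPM in the library labelled CMV_252, and Esrp1 and Grhl2 stayed at or below 1.26 CPM in every line of the second table.

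Both tables hold a library of CMV_228, of CMV_231 and of CMV_252, which shows how far these values repeat between the tables. The tables were deposited separately and differ in their gene records, and no test was made. Among members with at least 1 CPM in either table, 8 of 19 (42.1%) in CMV_228, 9 of 27 (33.3%) in CMV_231 and 6 of 17 (35.3%) in CMV_252 were more than 4-fold apart on the CPM + 1 scale. Over all shared gene names the shares were 11.5%, 11.8% and 20.7%. Most of these genes were lower in the second table, 1593 against 141 higher in CMV_228, 1633 against 173 in CMV_231 and 2037 against 1202 in CMV_252. Of the members, 4 were lower and 4 higher in CMV_228, 8 and 1 in CMV_231 and 1 and 5 in CMV_252. A change within a line and a difference between the tables cannot be told apart. In CMV_231 Cdh1 stood at 31.3 CPM in the first table and 0.216 CPM in the second table, Epcam at 20.2 and 1.41 CPM, and Cgnl1 at 8.07 and 95.3 CPM. The high E-cadherin and Epcam of CMV_231 in the first table were therefore not seen in its library of the second table. Cgn, which passed as higher in RPMS lines, stood at 44.4 and 12.7 CPM in CMV_228, at 35.6 and 7.19 CPM in CMV_231 and at 13.2 and 13.1 CPM in CMV_252. In the second table these lines thus lay within or just above the 3.09 to 10.8 CPM of the RPM libraries, and the high Cgn of CMV_228 and CMV_231 was not seen there.

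In CMV_228 Krt18 stood at 10.1 and 0.0563 CPM in the first and second table, Elf3 at 17.4 and 0.619 CPM, and Dsp at 0.950 and 13.5 CPM. In CMV_252 Pkp2 stood at 3.44 and 54.5 CPM and Cgnl1 at 31.5 and 183 CPM, so that its library of the second table lay within the RPM range of the first table for Cgnl1 (92.9 to 221 CPM) and above it for Pkp2 (20.7 to 39.7 CPM). The same library also held less Cdh2 than that of the first table (6.43 against 140 CPM) and less of the neuroendocrine factor Insm1 (9.95 against 133 CPM). Its summed leukocyte markers were at 8.27 CPM. Cgnl1 was higher in the second table in all 3 lines. There CMV_231, at 95.3 CPM, also lay within the RPM range of the first table, while CMV_228 stood at 19.8 CPM. Krt7 and Cldn12 kept within 4-fold in all 3 lines.

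**Figure D5:**
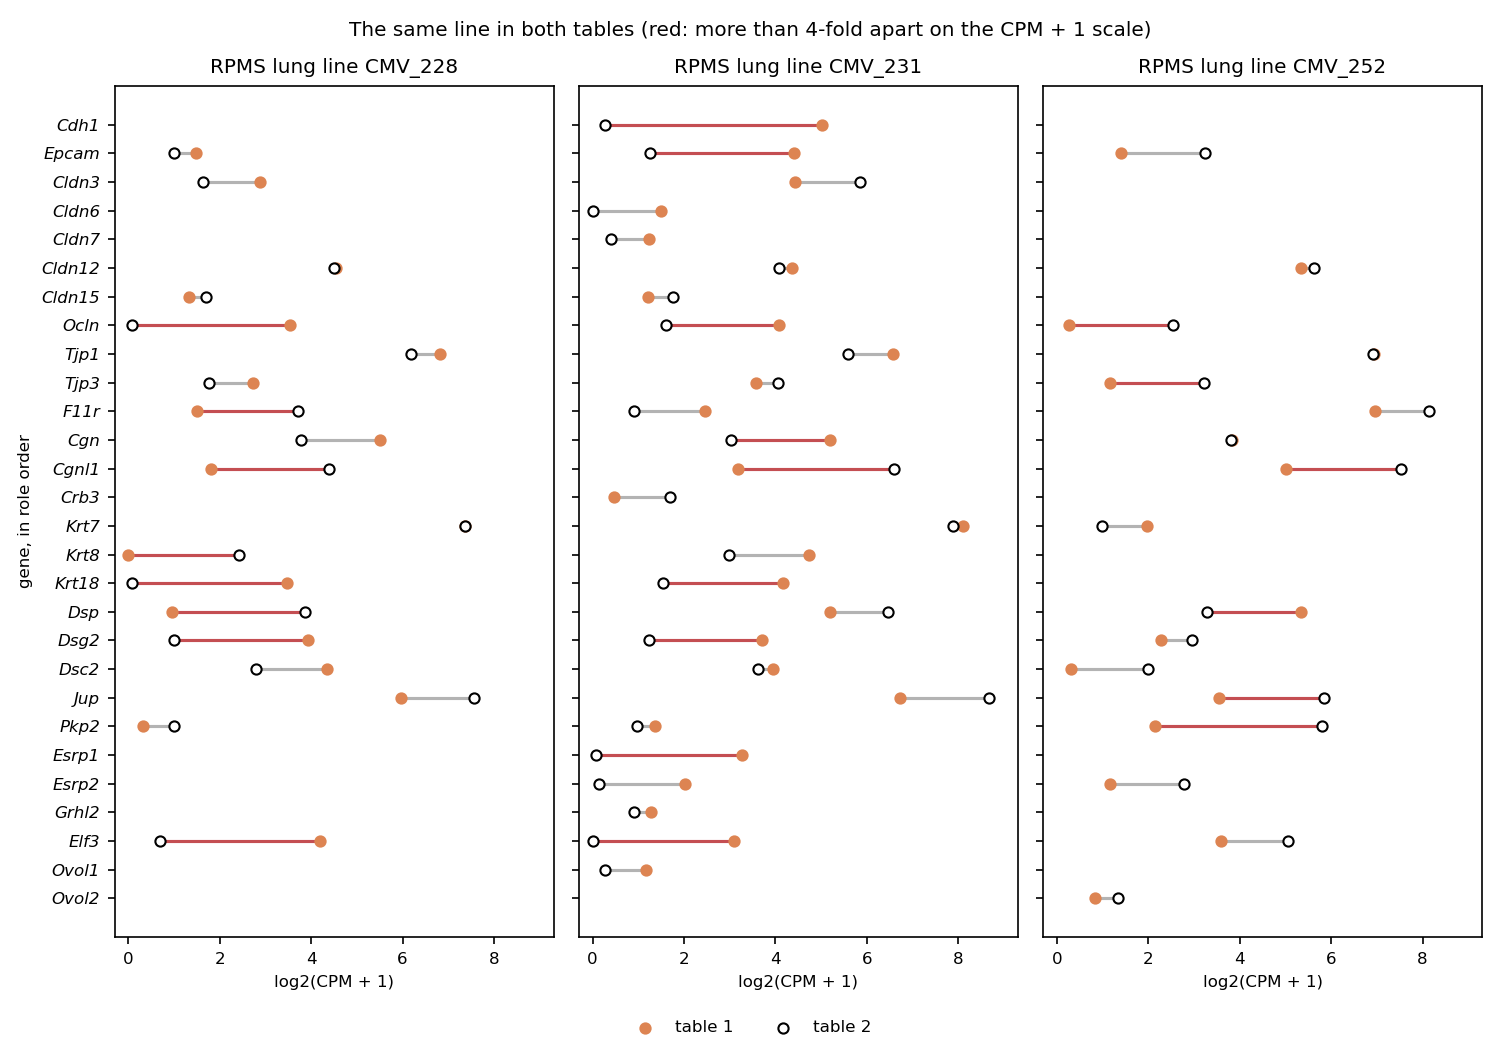
Members with at least 1 CPM in either table for the 3 RPMS lung lines present in both, on a log2(CPM + 1) axis, with filled dots for the first table and open dots for the second table. Red lines join values more than 4-fold apart, as for Cdh1 in CMV_231 and Pkp2 in CMV_252, and the dots of Krt7 and Cldn12 are joined by grey lines in every panel.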

How the data were processed

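The authors deposited 2 tables of raw read counts per gene, with no normalization. HISAT2, StringTie and GRCm38 are named in the submitters' processing notes, and per the labels' protocols the library kit was stranded. The annotation, versions and strand setting are not given in the sources used here. Totals ran from 25344949 to 31345631 counts in the first table (3 counts are 0.0905 to 0.120 CPM) and from 9453715 to 18451248 in the second table (0.159 to 0.291 CPM). Such floors cover counting error only. Unnamed records of the second table (1832 records, at most 0.0799% of a library) were left out. No 2 libraries of a group were copies (mean chi-square per gene 48.1 to 383 over 21 pairs).

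Each table was fitted whole in R 4.3.3 with edgeR 4.0.16 (TMM, filterByExpr, two-sided quasi-likelihood test, Benjamini-Hochberg threshold 0.05), and the tables were not pooled. SE is the fold change over the root of F. DESeq2 1.42.0, limma-voom (limma 3.58.1) and other factors, filters and left-out libraries were alternatives. The tests were checked on counts simulated at a single dispersion of 0.05, with changes only in genes with at least 10 counts in every library. That check does not cover genes that spread as widely between lines as many members did. Gene positions and exon lengths came from GENCODE for GRCm38, promoters from RefSeq for GRCm38.p6.

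The members and the lists (other adherens junction, tight junction, desmosome, keratin and regulator genes, E-cadherin repressors, and cell type markers) were chosen with earlier results of these data known. Values in every library are given for members past the threshold, the 4 with the smallest p in each comparison, Cdh1, Epcam, Krt8, Krt18, the 4 with the widest spread and the 3 with the highest mean in each table. Of other lists, at most 3 called genes by smallest p are named.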

Additional observations from a re-analysis of the deposited data

Results flagged for a closer look

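In groups of 4 libraries, 12 of 44 groups of member values held a library farther from the rest than Dixon's 95% limit, where chance gives about 1 in 20 groups. That rate does not apply here, since the 44 groups belong to the 15 members described in every library, some of which were taken for their wide spread, so the count of 12 is a description. In the RPM lung lines these were CMV_429 for Krt8 (545 CPM) and Krt19 (74.6 CPM), CMV_428 for Dsp (29.7 CPM), and CMV_426 for Krt7 (10.8 CPM) and Epcam (6.61 CPM). In the RPMS lung lines of the second table they were CMV_252 for F11r (280 CPM), Pkp2 (54.5 CPM) and Epcam (8.498 CPM), and CMV_231 for Dsp (87.5 CPM), Cldn3 (57.0 CPM) and Krt18 (1.89 CPM). In the liver lines CMV_273 stood above the others for Cgnl1 (4.16 CPM). CMV_428 and CMV_429 also held the surfactant transcripts of the RPM lines, and CMV_252 of the second table held the fewest neuroendocrine transcripts of its table. The part of either in these values was not tested.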

How the results depend on the processing

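No paired analysis was possible because the groups compared within a table share no line number. For RPMS against RPM lung, 5403 genes and 3 members passed. At a threshold of 0.01 these were 2103 genes and 0 members, and with limma-voom 5700 of 17654 genes and 5 of 23 members passed. Without CMV_428 and CMV_429 (chosen after seeing the data) 3581 genes and 2 members passed, neither of them Cgn, Cgnl1 or Pkp2. With 1 library left out 2896 (CMV_228) to 7076 (CMV_252) genes and 1 (CMV_231, where it was Cdh1) to 5 members passed. For liver against lung, DESeq2 called 52 genes and 2 members and edgeR without a filter called 2 genes, and leaving out any 1 library gave 0. Log2 fold changes turned sign for F11r with limma-voom (-1.89) and as a difference of mean log2(CPM + 1) (-1.64), for Cdh1 (0.12) and Krt8 (0.23) without CMV_428 and CMV_429, and in liver against lung for Elf3 with limma-voom (1.34), for Elf3 (0.20), Epcam (0.035) and Cldn3 (0.51) as differences of means, and for Pkp2 (0.86) and Epcam (1.17) without CMV_252 and CMV_344. With 1 library left out, RPMS against RPM values ran from -3.74 to 0.59 (F11r), -0.13 to 4.59 (Epcam), -10.12 to 0.62 (Krt8), -1.34 to 0.97 (Krt18), -3.06 to 0.067 (Cldn3) and -0.35 to 0.84 (Jup). Liver against lung values ran from -0.086 to 0.81 (Cgn), -3.03 to 1.36 (Pkp2), -1.02 to 0.56 (Cdh1), -0.51 to 1.20 (Epcam), -0.46 to 1.31 (Krt7) and -1.20 to 3.88 (Cldn3). The cause was not tested. Cgn, Cgnl1 and Pkp2 kept their direction between RPMS and RPM lung in every alternative run, with adjusted p from 0.00236 to 0.124, from 4.11e-05 to 0.0838 and from 1.39e-06 to 0.0740. In the second table the lower depth limits members under about 0.291 CPM.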

Other observations

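The remaining marker lists gave these counts for RPMS against RPM lung lines by edgeR's quasi-likelihood test, where 30.6% of all tested genes were called. Of 11 fibroblast markers 9 were tested, and 1 rose and 6 fell, with a summed level between 23.3 and 727 CPM in the RPM group and between 7.14 and 17.0 CPM in the RPMS group. Of 8 endothelial markers 5 were tested and 1 fell, and of 14 alveolar and airway markers 10 were tested and 1 fell. Of 11 hepatocyte markers 2 were tested, 1 higher and 1 lower, with Alb and Apob at 0 counts in the first table. Of 8 bile duct markers 4 were tested, and 2 rose and 2 fell. In liver against lung lines no gene of these lists passed, and neither did any leukocyte or neuroendocrine marker.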
